A study of Homo sapiens with 6 samples.

Results

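The 9 genes described here include 7 for histones grouped as replication-independent (H2AZ1, H2AZ2, H2AX, H2AJ, H3-3A, H3-3B and H1-10). The other 2 serve the supply of replication-dependent histone mRNA (SLBP and NPAT). All 9 were taken by symbol and by role from the 21625 genes of the expression table, and each symbol had 1 row. The cells were CHL-1, a single established human melanoma line that carries a fusion of EWSR1 with CREM, a cAMP-responsive transcription factor. In the CREM siRNA group the cells received 50 nM of a siRNA pool directed at the part of CREM that encodes the DNA-binding domain, which the fusion transcript also holds, and in the control siRNA group they received a mix of non-targeting siRNAs. The methods give a medium with fetal bovine serum for this line, and some column headers of both groups name serum. RNA was collected after 48 h and sequenced as mRNA in 3 libraries per group. The methods speak of experiments run in triplicate and do not say whether these were independent cultures, so p-values measure the spread between these libraries only.

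Chromatin of dividing cells is built from replication-dependent histones, whose genes lie in clusters and whose mRNAs lack a poly(A) tail and end in a stem-loop. The stem-loop is bound by SLBP through processing, export, translation and decay of these mRNAs, and NPAT, a substrate of cyclin E and CDK2, activates the clustered genes at the histone locus body. Variant histones come from genes outside these clusters, mostly with polyadenylated mRNAs, and several enter chromatin through chaperones of their own. H2A.Z (H2AZ1 and H2AZ2) marks nucleosomes beside transcription start sites, H2AX carries the phosphorylation that marks DNA double-strand breaks, and H3.3, 1 protein encoded by both H3-3A and H3-3B, replaces H3 in transcribed genes. The question the comparison addresses is how the transcriptome of CHL-1 cells changes when the fusion and CREM are silenced together.

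CREM itself had 14.8, 16.9 and 15.5 CPM (reads per 1e6 reads of a library, as the authors scaled them) in CREM siRNA libraries, against 268, 286 and 287 CPM in control siRNA libraries. The gene-level value does not part the fusion from CREM. Libraries held 23793186 to 29793837 reads with CREM siRNA and 17221794 to 24341121 reads with control siRNA. Of the melanocyte lineage list (MITF, SOX10, PMEL, MLANA, TYR, TYRP1 and DCT), 4 of 7 genes were tested and 3 rose, among them SOX10 (log2 fold change 0.67) and DCT (3.26), and the list's summed level was 715 to 747 RPKM with CREM siRNA and 323 to 344 RPKM with control siRNA, where RPKM is CPM per kilobase of transcript. PMEL, MLANA and TYR, named here after their values were seen, set replicate 3 apart: PMEL was at 23.5 CPM in CREM siRNA replicate 3, against 1.05 and 2.29 CPM in the other CREM siRNA libraries and 1.79, 1.72 and 5.47 CPM in control siRNA libraries, and MLANA and TYR were above 0 only in replicate 3 of each group (1.25 and 0.683 CPM with CREM siRNA, 0.589 and 0.0841 CPM with control siRNA). Of the undifferentiated melanoma list 2 genes rose (NGFR and VIM) and AXL fell (-0.30), and EGFR had 1 read. None of the leukocyte, epithelial or endothelial markers reached the level tested. Leukocyte markers summed to 0.437 to 0.726 RPKM with CREM siRNA and 1.604 to 2.00 RPKM with control siRNA, with CD3E at 0, epithelial markers to 0.101 to 0.237 and 0.0747 to 0.169 RPKM with KRT5 at 0, and endothelial markers to 0.0227 to 0.0371 and 0.0185 to 0.0335 RPKM with PECAM1 at 0. The higher leukocyte sum with control siRNA lay in 1 gene, PTPRC, named here after its values were seen. PTPRC had 1.08, 0.737 and 0.723 CPM in CREM siRNA libraries, against 9.12, 9.07 and 10.3 CPM in control siRNA libraries. Over all libraries LYZ was at 0.409 to 0.715 CPM and CD14 at 0.0402 to 0.252 CPM, and for both the groups overlapped. In bulk RNA, fewer cells of a kind and less RNA per cell cannot be told apart.

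The stretches of 250 bases before the transcription start are shown for 5 of the genes that fell, because the silenced factor binds DNA at the cAMP response element, TGACGTCA, and at its shorter form, TGACG. They are RefSeq sequences of GRCh38.p14, read 5′ to 3′ on the strand of the gene, and capitals mark TGACG and CCAAT (a motif bound by the factor NF-Y) on either strand.
H2AZ1 (chr4:99950276-99950525, minus strand): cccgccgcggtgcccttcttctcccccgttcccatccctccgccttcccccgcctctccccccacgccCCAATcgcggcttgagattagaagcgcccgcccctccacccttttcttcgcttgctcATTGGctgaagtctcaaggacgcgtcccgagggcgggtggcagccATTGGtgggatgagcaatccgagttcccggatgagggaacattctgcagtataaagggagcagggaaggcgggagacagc
H2AZ2 (chr7:44848088-44848337, minus strand): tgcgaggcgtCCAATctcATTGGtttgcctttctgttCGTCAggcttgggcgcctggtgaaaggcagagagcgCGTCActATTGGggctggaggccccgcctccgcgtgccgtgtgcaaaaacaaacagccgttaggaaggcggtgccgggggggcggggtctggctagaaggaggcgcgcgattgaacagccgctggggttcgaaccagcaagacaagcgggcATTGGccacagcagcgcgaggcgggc
H2AX (chr11:119095466-119095715, minus strand): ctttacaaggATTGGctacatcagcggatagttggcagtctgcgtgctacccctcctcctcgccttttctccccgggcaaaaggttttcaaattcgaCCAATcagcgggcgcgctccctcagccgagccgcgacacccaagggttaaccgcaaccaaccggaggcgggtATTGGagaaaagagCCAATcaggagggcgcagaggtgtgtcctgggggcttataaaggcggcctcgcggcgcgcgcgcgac
H3-3B (chr17:75779780-75780029, minus strand): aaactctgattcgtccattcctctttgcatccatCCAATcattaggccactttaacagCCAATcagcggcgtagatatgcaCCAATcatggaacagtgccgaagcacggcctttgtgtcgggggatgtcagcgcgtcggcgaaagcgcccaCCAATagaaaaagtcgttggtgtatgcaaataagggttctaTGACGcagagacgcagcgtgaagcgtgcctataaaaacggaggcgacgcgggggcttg
NPAT (chr11:108222639-108222888, minus strand): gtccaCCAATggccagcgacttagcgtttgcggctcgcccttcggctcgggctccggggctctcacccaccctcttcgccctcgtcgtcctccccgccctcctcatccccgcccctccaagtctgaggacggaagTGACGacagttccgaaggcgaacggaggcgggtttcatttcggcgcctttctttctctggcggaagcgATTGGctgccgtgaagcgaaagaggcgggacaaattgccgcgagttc

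Exact matches were counted on both strands over the 300 bases from 250 before to 50 after each RefSeq start, and every one of the 9 genes had such a window (12 windows, since H3-3A has 4). The full element TGACGTCA was in 0 of the 9 genes and in 1.85% of all 35116 windows. TGACG, which is also contained in the full element, was in 3 of the 9 genes, at bases -213 and -177 of H2AZ2, -58 of H3-3B and -115 of NPAT (first base of each match, counted back from the start), and in 24.6% of all windows. CCAAT was in 7 of the 9 genes and in 34.6% of all windows, and 5 genes (H2AZ1, H2AZ2, H2AX, H2AJ and H3-3B) had 3 or more copies, as 3.26% of all windows had. H1-10 and SLBP had none of either motif, and H3-3A had a single CCAAT in 3 of its 4 windows. The words TTTCCCGC, TTTGGCGC, TTTCGCGC and TTTGCCGC, forms of the E2F site, were in 0 of the 9 genes and in 3.31% of all windows. These matches are letters in a window, and binding was not measured.

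Of the 9 genes, 8 were expressed at a mean of at least 1 RPKM and were tested, and 7 of the 8 fell with CREM siRNA, none rose and H3-3A did not pass the test. The test was limma on log2(RPKM + 1) over all 12407 genes at or above that level, with Benjamini-Hochberg adjustment over them and a threshold of 0.05. At an unadjusted p under 0.05 limma likewise had 0 of the 8 higher, and edgeR and DESeq2 on the recovered reads each called 7 lower and 0 higher. The median log2 fold change of the 8 genes was -0.73, against 0.0037 over all genes tested. Calls were common in these data: 36.7% of all genes tested fell and 36.6% rose, so that a fall alone was not unusual. A fall of at least 1 on the log2 scale was called for 3 of the 8 (H2AZ1, H2AX and H2AZ2) and for 8.85% of all genes tested. The libraries of the 2 groups did not overlap for 7 of the 8 genes and for 76.2% of all genes tested. When every library was scaled to the same GAPDH level, as the study's methods state for its own analysis, the median of all genes shifted by 0.18, and 5788 genes rose and 2976 fell in place of 4544 and 4558.

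**Figure D1:**
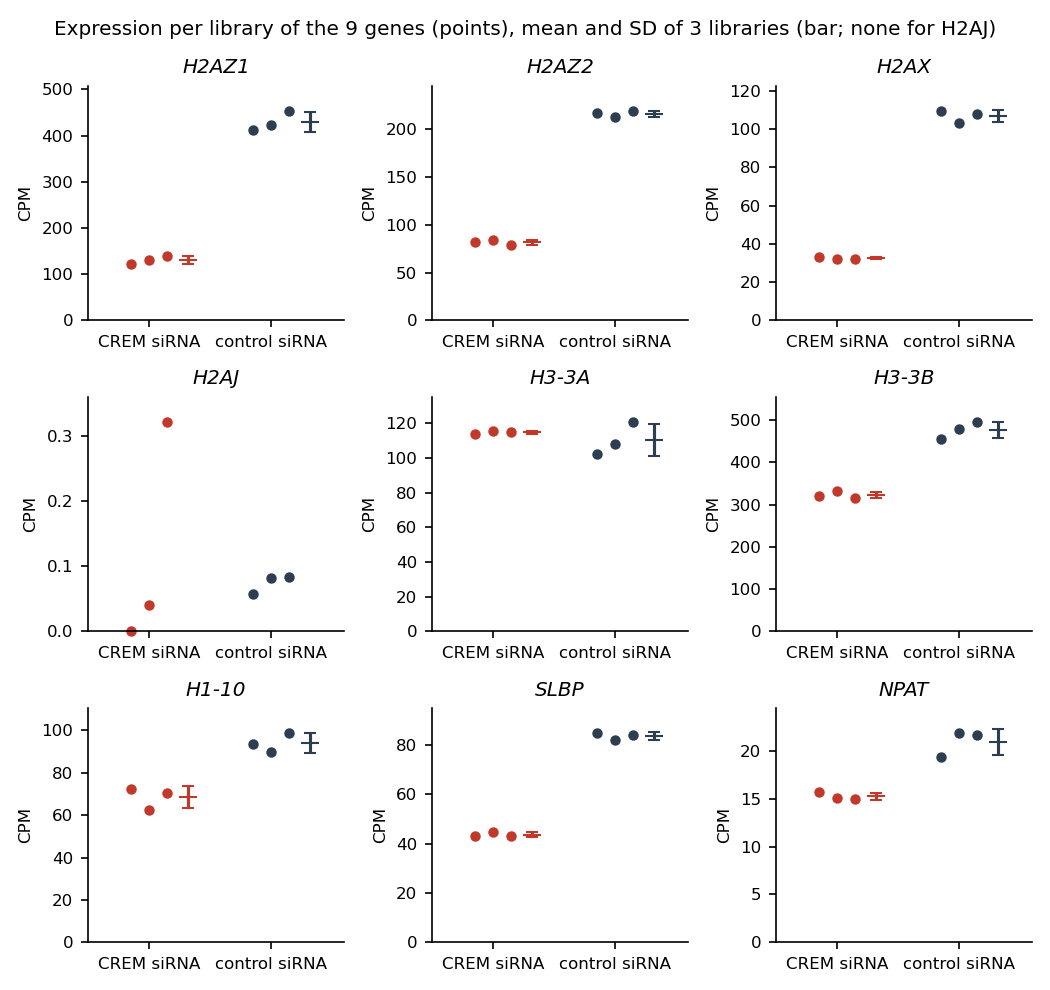
CPM of each of the 9 genes in the 3 CREM siRNA libraries (red, left) and the 3 control siRNA libraries (blue, right), each panel on its own linear axis from 0. H2AZ1, H2AZ2 and H2AX in CREM siRNA libraries lay far below control siRNA libraries, H3-3A overlapped, and H2AJ was near 0 in all libraries.

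H2AZ1 encodes the main form of H2A.Z, and lies at chr4:99948088-99950275 of GRCh38. It had 121, 130 and 139 CPM in CREM siRNA libraries, against 412, 423 and 453 CPM in control siRNA libraries. Every CREM siRNA library lay far below every control siRNA library. The means were 130 ± 8.96 CPM and 429 ± 21.1 CPM (SD, n = 3 each), so that CREM siRNA cells held 30.4% of the control level, and the log2 fold change was -1.71 (SE 0.0614, 95% interval -1.85 to -1.58, limma adjusted p = 1.01e-09). The fall of H2AZ1 was close to that of H2AX, whose interval overlapped it, and the order of the pair turned without CREM siRNA replicate 1 (-1.66 for the log2 fold change of H2AZ1, -1.68 for the log2 fold change of H2AX).

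H2AZ2 encodes a second H2A.Z protein that differs from the first by a few residues, and lies at chr7:44826889-44848126. Its level was 82.4, 83.8 and 78.8 CPM in CREM siRNA libraries, against 217, 212 and 219 CPM in control siRNA libraries. Both groups were tight, with a wide gap between them. The CREM siRNA mean was 37.8% of the control mean, and the log2 fold change was -1.35 (SE 0.0458, limma adjusted p = 6.45e-10). Summed per length over both genes, H2A.Z mRNA came to 155 ± 9.09 RPKM in CREM siRNA cells and 499 ± 22.7 RPKM in control siRNA cells (SD, n = 3 each), or 31.1% of control. H2AZ1 made up 88.0, 88.6 and 89.8% of that sum in CREM siRNA libraries, against 90.4, 90.8 and 91.1% in control siRNA libraries. The shares did not overlap and differed by -2.02 percentage points. The exact permutation test gave its smallest p for 3 against 3 libraries (p = 0.1, two-sided). Both the shares and the size of their difference rest on the lengths behind the RPKM, 947 bases for H2AZ1 and 4704 bases for H2AZ2.

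H2AX, at chr11:119093874-119095465, is known to give both a stem-loop mRNA and a polyadenylated mRNA. Sequencing of mRNA may favour the polyadenylated form, and how much of each form was counted here was not measured. It had 33.02, 32.3 and 32.4 CPM in CREM siRNA libraries, against 109, 103 and 108 CPM in control siRNA libraries. The 3 CREM siRNA values differed by less than 1 CPM and lay well below all control siRNA values. The CREM siRNA mean of 32.6 ± 0.387 CPM was 30.5% of the control mean of 107 ± 3.15 CPM (SD, n = 3 each), with a log2 fold change of -1.67 (SE 0.0447, limma adjusted p = 1.05e-10). H2AX had the lowest adjusted p of the 8 genes.

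H2AJ, an H2A variant gene at chr12:14774405-14778002, was near the detection limit. It was read 0, 1 and 8 times in CREM siRNA libraries, against 1, 2 and 2 times in control siRNA libraries, or 0, 0.0409 and 0.321 CPM against 0.0577, 0.0817 and 0.0841 CPM. The CREM siRNA libraries spanned the whole range and the control siRNA libraries lay inside it. Of the 9 reads with CREM siRNA, 8 came from replicate 3, the library that also stood apart in PMEL, MLANA and TYR, and without that library 1 read was left, against 5 in all control siRNA libraries. The library with no read allows a level of up to 0.101 CPM (3 reads, counting error only). A difference was not detectable at this depth (exact permutation p = 1, two-sided), and no fold change is given.

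The H3.3 genes gave unlike values. H3-3A, at chr1:226061831-226072019, had 114, 116 and 115 CPM in CREM siRNA libraries, against 103, 108 and 121 CPM in control siRNA libraries. The CREM siRNA libraries lay inside the wider control siRNA range. The log2 fold change was 0.06 (SE 0.0597, 95% interval -0.07 to 0.19, limma adjusted p = 0.398), an interval that leaves room for a change of up to 0.19 upward. The call depended on 1 library and on the scaling: without control siRNA replicate 3 the value was 0.12 (limma adjusted p = 0.0445), and with GAPDH held constant it was 0.25 (adjusted p = 0.00601), where the median of all genes was 0.17.

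H3-3B, at chr17:75776434-75779779, had 320.2, 332 and 317 CPM in CREM siRNA libraries, against 457, 479 and 495 CPM in control siRNA libraries. No CREM siRNA library reached the lowest control siRNA library. The CREM siRNA mean of 323 ± 7.92 CPM was 67.7% of the control mean of 477 ± 19.5 CPM (SD, n = 3 each), and the log2 fold change was -0.56 (SE 0.0487, limma adjusted p = 1.46e-06). H3-3A thus made up more of the H3.3 mRNA of CREM siRNA cells: its share of the summed RPKM of both genes was 48.9, 48.4 and 49.5% in CREM siRNA libraries, against 37.7, 37.9 and 39.6% in control siRNA libraries. The shares did not overlap and differed by 10.5 percentage points (exact permutation p = 0.1, two-sided, the smallest possible). This ratio is taken within a library and does not move with the scaling, but its size rests on the lengths behind the RPKM. Summed H3.3 mRNA was 221 ± 3.29 RPKM in CREM siRNA cells and 271 ± 15.4 RPKM in control siRNA cells (SD, n = 3 each), or 81.6% of control, against 31.1% for H2A.Z.

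**Figure D2:**
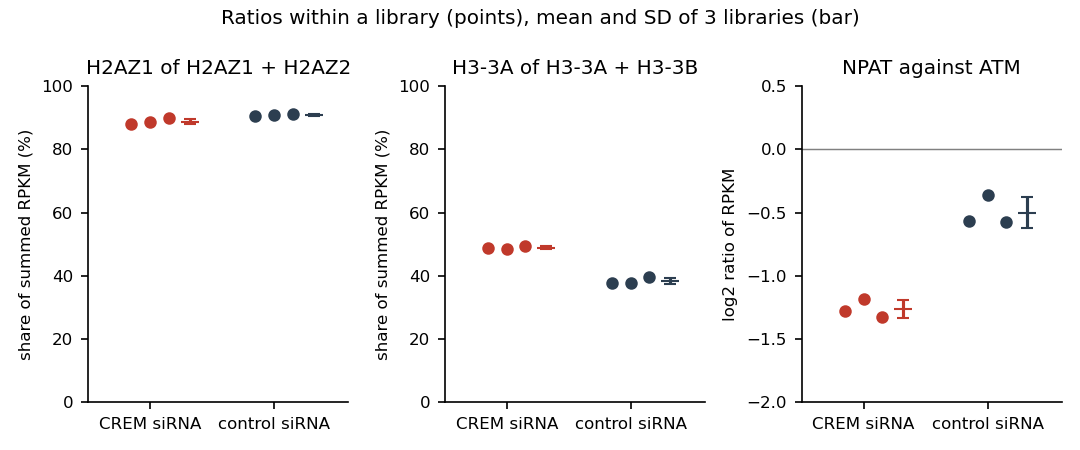
Share of H2AZ1 in H2A.Z mRNA and of H3-3A in H3.3 mRNA (percent of summed RPKM), and log2 ratio of NPAT to ATM, in CREM siRNA libraries (red, left) and control siRNA libraries (blue, right). The H3-3A share was 48.4 to 49.5% with CREM siRNA and 37.7 to 39.6% with control siRNA, while the H2AZ1 share differed by -2.02 points.

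H1-10 encodes a linker histone, which binds DNA between nucleosomes, and lies at chr3:129314771-129316286. It had 72.3, 62.6 and 70.7 CPM in CREM siRNA libraries, against 93.7, 89.6 and 98.7 CPM in control siRNA libraries. The groups did not overlap, although replicates were less tight than for H2AX. The CREM siRNA mean of 68.5 ± 5.19 CPM was 72.9% of the control mean of 94.0 ± 4.55 CPM (SD, n = 3 each), and the log2 fold change was -0.45 (SE 0.0619, limma adjusted p = 6.00e-05).

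SLBP, the stem-loop binding protein gene at chr4:1692731-1712319, had 43.3, 44.8 and 42.9 CPM in CREM siRNA libraries, against 84.8, 81.9 and 84.0 CPM in control siRNA libraries. The CREM siRNA values lay at close to 52.2% of control with little spread in either group. The log2 fold change was -0.91 (SE 0.0447, limma adjusted p = 1.28e-08), between those of the H2A variants that fell most and those of H3-3B and H1-10.

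NPAT, at chr11:108157215-108222638, is the coactivator of the clustered histone genes. It had 15.7, 15.1 and 14.99 CPM in CREM siRNA libraries, against 19.3, 21.8 and 21.6 CPM in control siRNA libraries. The groups did not overlap. The CREM siRNA mean was 72.9% of the control mean, and the log2 fold change of -0.34 (SE 0.0654, limma adjusted p = 0.000746) was made smaller by the added 1 RPKM, since NPAT stood at 2.48 RPKM in CREM siRNA cells and 3.41 RPKM in control siRNA cells. With GAPDH held constant the change was -0.19 and no longer passed (adjusted p = 0.0808).

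NPAT shares its promoter region with ATM, a kinase that phosphorylates H2AX: their RefSeq starts lie 429 bases apart on opposite strands. ATM had 92.9, 83.5 and 91.6 CPM in CREM siRNA libraries, against 70.1, 68.4 and 78.3 CPM in control siRNA libraries. The groups did not overlap, and ATM rose by 0.26 on the log2 scale (limma adjusted p = 0.00496) where NPAT fell. The log2 ratio of NPAT to ATM, per length, was -1.28, -1.18 and -1.32 in CREM siRNA libraries, against -0.57, -0.36 and -0.57 in control siRNA libraries. The ratios did not overlap and differed by -0.76 (exact permutation p = 0.1, two-sided, the smallest possible). The exact test on CPM gave the same smallest p for each of the 7 genes that fell.

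**Figure D3:**
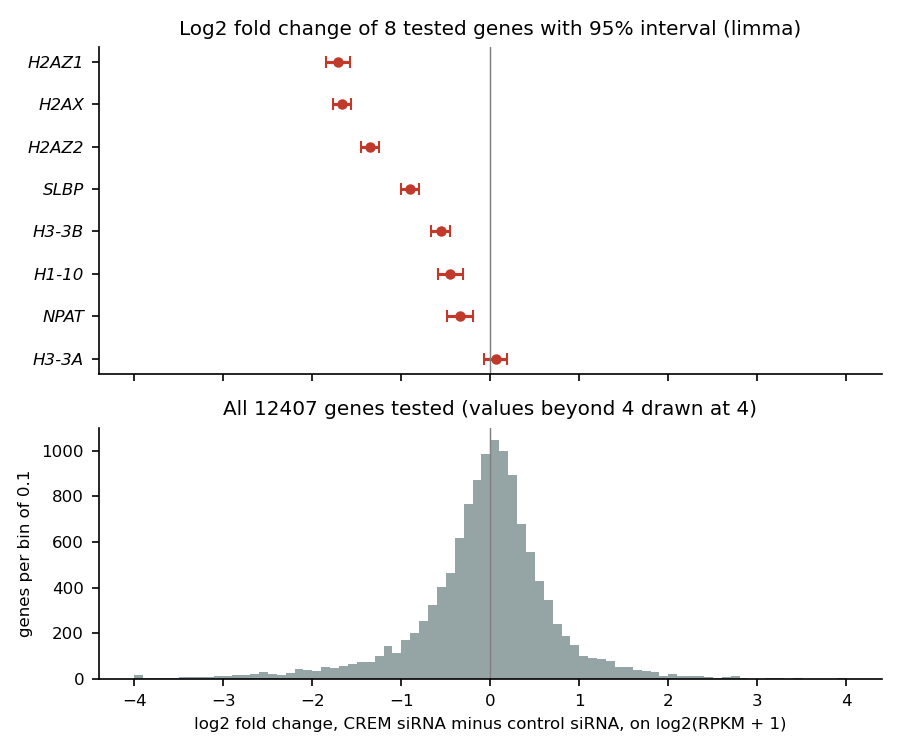
Log2 fold change (CREM siRNA minus control siRNA, log2(RPKM + 1) scale) of the 8 genes tested, with 95% intervals from limma, above the distribution of all 12407 genes tested. H2AZ1, H2AX and H2AZ2 lay between -1.71 and -1.35, in the lower tail, and only the interval of H3-3A crossed 0.

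Set in order of level per length, the 9 genes ran H2AZ1, H3-3B, H3-3A, H1-10, SLBP, H2AX, H2AZ2, NPAT and H2AJ in CREM siRNA cells (138, 113, 108, 45.5, 20.6, 20.4, 17.4, 2.48 and 0.0329 RPKM on average), against H2AZ1, H3-3B, H3-3A, H2AX, H1-10, H2AZ2, SLBP, NPAT and H2AJ in control siRNA cells (453, 167, 104, 67.1, 62.4, 45.9, 39.5, 3.41 and 0.0203 RPKM). The libraries of SLBP and H2AX overlapped in CREM siRNA cells and those of H2AX and H1-10 in control siRNA cells, so these neighbours had no clear order. H2AZ1 stood first in both groups, but close to H3-3B in CREM siRNA cells and far above it in control siRNA cells. Among those of the 9 genes that were tested, the SD of a group was at most 8.44% of its mean.

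Counting could touch some of these values. The genes overlap a transcript on the opposite strand in GENCODE for H2AZ1 (AC097460.1), H3-3A (AL512343.2), H3-3B (UNK), H1-10 (H1FX-AS1) and NPAT (ATM), and no source used here says whether counting took account of strand. GENCODE lists pseudogenes under the name of H2AZ1 (6), H2AZ2 (1), H3-3A (6) and H3-3B (2), so reads of these genes may have been split with copies and their levels are less certain. H3-5, a retrocopy of H3-3B that is named here after its values were seen, had 68.7 ± 4.52 CPM in CREM siRNA cells and 106 ± 2.14 CPM in control siRNA cells (SD, n = 3 each; -0.62, limma adjusted p = 1.53e-06), and reads shared with H3-3B cannot be told apart from its own.

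Of 10 other variant histone genes considered in the table, 3 reached the level tested, and 5 were at 0 in all libraries. All 3 tested genes (CENPA, MACROH2A1 and H3-5) fell, with a median of -0.98. CENPA, the centromeric H3, fell to 3.18 ± 0.527 CPM in CREM siRNA cells, against 27.9 ± 1.45 CPM in control siRNA cells (-2.68, limma adjusted p = 2.75e-10), and MACROH2A1, which encodes an H2A with a large extra domain, fell to 64.6 ± 2.37 CPM in CREM siRNA cells, against 132 ± 3.73 CPM in control siRNA cells (-0.98). The CENPA change was larger than that of any of the 8 genes tested. Among the counts below, 36.7% of all genes tested fell and 36.6% rose, as given above.

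Of the factors that place H2A.Z, 13 were tested, 6 fell, 1 rose and 6 did not pass, with a median of -0.10. ANP32E, the chaperone that removes H2A.Z from nucleosomes, fell to 61.6 ± 4.39 CPM in CREM siRNA cells, against 199 ± 3.29 CPM in control siRNA cells (-1.64), a change close to that of H2AZ1. ACTL6A, an actin-related subunit of several remodellers, fell by 0.85 on the log2 scale, and KAT5, the acetyltransferase of the TIP60 complex, rose by 0.15. The call on the log2 fold change of KAT5 was lost without CREM siRNA replicate 2 (0.12), control siRNA replicate 1 (0.13) or control siRNA replicate 2 (0.15) and in DESeq2 (0.14), where the adjusted p was 0.0542 to 0.0784. Of 7 chaperones and cofactors of H3.3, 3 rose, 2 fell and 2 did not pass, with a median of 0.16: ATRX (0.52) and CABIN1 (0.46) rose, and DAXX (-0.65) and ASF1A (-0.28) fell. With GAPDH held constant 5 of these rose and 1 fell, and the log2 fold change of ASF1A was -0.10 and did not pass.

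Around H2AX, 12 of 13 genes of the damage signal were tested, of which 9 fell, 2 rose and 1 did not pass, with a median of -0.44. MDC1, which binds phosphorylated H2AX, fell to 29.8 ± 1.41 CPM in CREM siRNA cells, against 127 ± 3.54 CPM in control siRNA cells (-1.84, limma adjusted p = 2.74e-10), and RNF168, a ubiquitin ligase recruited after it, fell by 1.03 on the log2 scale. PPM1D, a phosphatase that acts on phosphorylated H2AX, rose (0.45), as did ATM. With GAPDH held constant 6 genes of this list fell and 2 rose, and leaving out each library in turn gave 7 to 9 lower and 2 higher.

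Beside SLBP, 19 genes of histone mRNA processing were tested, of which 14 fell, 2 rose and 3 did not pass, with a median of -0.49. SNRPF (-1.16) and SNRPB (-1.06), Sm proteins shared by the U7 and the splicing snRNPs, had the lowest adjusted p among those that fell. NCBP2 (0.35), a subunit of the cap-binding complex, and LSM10 (0.19), a protein particular to U7, rose. LSM11, the other protein particular to U7, fell (-0.62, limma adjusted p = 1.54e-05) and is named here after its values were seen. Beside NPAT, 8 genes of transcription at the histone locus were tested, of which 3 fell, 2 rose and 3 did not pass, with a median of -0.02. With GAPDH held constant 4 of these rose and 3 fell, and with a filter of 5 RPKM 2 rose and 1 fell. CDK2 fell to 24.04 ± 2.64 CPM in CREM siRNA cells, against 78.4 ± 2.23 CPM in control siRNA cells (-1.61), and CCNE2, a cyclin E, fell to 3.63 ± 0.231 CPM, against 21.4 ± 0.124 CPM (-1.86). CCNE1, the other cyclin E gene, is named here after its values were seen. It had 11.7 ± 1.22 CPM in CREM siRNA cells, against 12.7 ± 0.764 CPM in control siRNA cells, and did not pass (-0.11, limma adjusted p = 0.218). HINFP (0.22), an activator of H4 genes, and GON4L (0.25) rose.

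The 7 chaperones tied to replication all fell, with a median of -1.23, and 5 of them fell by at least 1. CHAF1B (-2.86) and CHAF1A (-2.50), the subunits of the CAF-1 complex that delivers replicative H3 and H4, had changes beyond that of H2AZ1. ASF1B fell further (-3.10), with the same limma adjusted p as CHAF1A (3.35e-11), and is named here after its values were seen. Replication-dependent histones had a median of the opposite sign. The table held 61 such genes, and of the 20 that were tested 15 rose, none fell and 5 did not pass, with a median of 1.20, and H2BC21 (2.96) and H2BC12 (2.26) had the lowest adjusted p. At an unadjusted p under 0.05 limma also had 0 lower, as edgeR had at its threshold. Without the filter on low values 2 of these genes were called lower, DESeq2 on the recovered reads called 4 lower and leaving out control siRNA replicate 2 gave 1, so "none" holds for the genes at 1 RPKM and above in the test with all 6 libraries. The filter took a mean over both groups, so some of the 20 genes reached it through CREM siRNA libraries alone, which favours a rise among them. Without the filter 22 genes of this list rose and 2 fell. With a filter of 5 RPKM 8 rose and 0 fell, but that filter took the same mean and favours a rise in the same way. What is counted for these genes in mRNA libraries depends on how much of their RNA was polyadenylated or carried over, which was not measured.

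**Figure D4:**
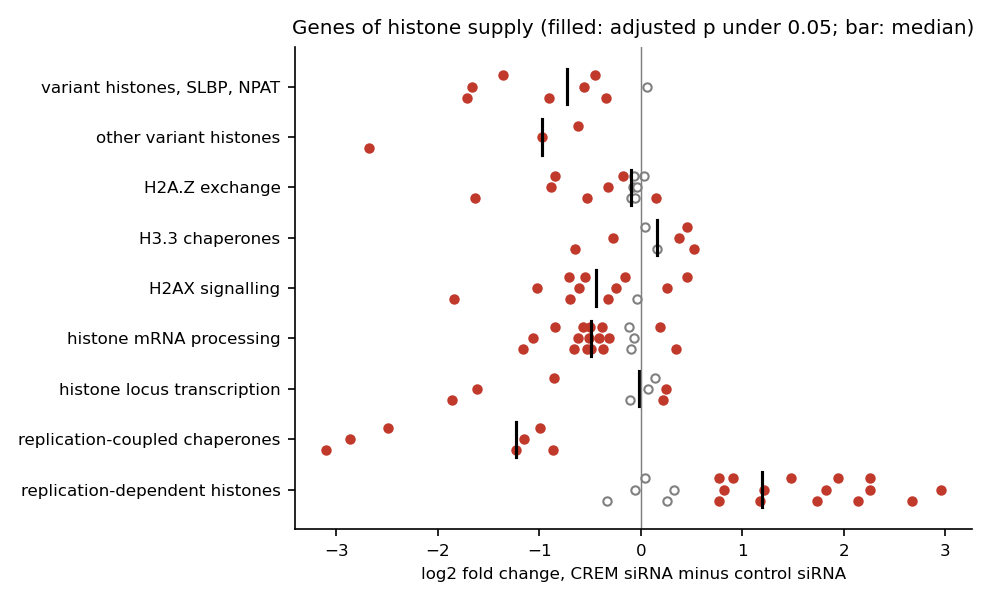
Log2 fold change (CREM siRNA minus control siRNA) of every tested gene in 9 lists, with filled points for an adjusted p under 0.05, open points for the others and a bar at the median. The 8 tested genes described here had a median of -0.73, replication-coupled chaperones one of -1.23 and replication-dependent histones one of 1.20.

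The genes whose 6 values ran most like those of H2AZ1, by Euclidean distance between log2(RPKM + 1) values centred on each gene's mean, were PDGFRL (distance 0.1002), RECQL4 (0.123) and RBM38 (0.124). PDGFRL had a log2 fold change of -1.71, RECQL4 of -1.70 and RBM38 of -1.75. The genes most like H3-3A were EID1 (distance 0.0392), MBD4 (0.0535) and CDK5 (0.0545), whose changes of 0.07, 0.07 and 0.05 did not pass the test. These are likenesses over 6 libraries in 2 groups and were picked out of all genes tested.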

How the data were processed

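mRNA of CHL-1 cells was sequenced by the study in 3 CREM siRNA and 3 control siRNA libraries. The authors deposited CPM and RPKM per gene. The submitters' processing notes name R 3.6.1 and hg38. The aligner, counter, annotation and strand use are named in no source used here. GAPDH was not constant in either table (1298, 1310 and 1501 CPM with CREM siRNA, 1517, 1591 and 1586 CPM with control siRNA), although the methods state a scaling to it. The deposited CPM are whole reads times 1 step per library (100% of values whole within 0.001), which gave reads. Genes whose 6 libraries averaged 1 RPKM or more were tested with limma 3.58.1 (trend and robust variance, no covariate) in R 4.3.3 on log2(RPKM + 1), a scale that understates changes of low genes. edgeR 4.0.16 on recovered reads called 5414 genes higher and 5254 lower of 14770. Single values were compared by two-sided exact permutation. DESeq2 1.42.0, other pseudocounts, filters, scalings, the CPM table, an equal-variance test, a replicate block and leaving out each library were the alternatives. Scripts for the gene tests were tested on simulated data. Genes named outside the 9 are at most 4 per list (the 2 lowest adjusted p in each direction). ATM, the 3 genes most alike to H2AZ1 and to H3-3A, CREM and GAPDH are named too. The melanocyte lineage list is printed in full. Of the other cell type markers, LYZ, CD14, CD3E, EGFR, KRT5 and PECAM1 were picked after their values were seen. Any others are said in place to be picked in that way. The 9 genes and all lists were chosen with earlier results of these data known. Coordinates of the 9 genes are those of RefSeq for GRCh38.p14, matched by gene ID. The result of 1 gene of these lists is not reported here, and its list is counted without it.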

Additional observations from a re-analysis of the deposited data

How the results depend on the processing

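The 7 genes that fell kept their direction and their side of the threshold in every alternative in which they were tested, except NPAT, whose change was -0.19 with GAPDH scaling (limma adjusted p = 0.0808; over its 17 alternatives the adjusted p was 1.86e-05 to 0.0808, and a filter of 5 RPKM removed it). H3-3A was called higher with GAPDH scaling (0.25, limma adjusted p = 0.00601), so that the number of the 9 genes called higher was 1 there, and without control siRNA replicate 3; leaving out each library in turn gave 0.0063 to 0.12 for H3-3A (adjusted p 0.0445 to 0.929) and 0 to 1 genes called higher. The change of H2AZ1 ran between -1.76 and -1.52, of H2AX between -1.73 and -1.48, of H2AZ2 between -1.42 and -1.17 and of SLBP between -0.95 and -0.72. GAPDH scaling gave 2976 lower genes of 12407, and the log2 fold change of CDK5 ran between -0.0014 (without control siRNA replicate 1) and 0.0959 when each library was left out, and passed in none of these. The cause was not tested.

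The column headers number the experiments alike in both groups, and no source used here says whether a number marks an experiment shared by both, so libraries were not paired in the test reported. Deviations from the group means correlated by 0.27, -0.035 and 0.14 between libraries of the same number, and CREM siRNA replicates 1 and 3 correlated best with their own number while replicate 2 did not. With a replicate block 4853 genes rose and 4812 fell, and no call among the 9 genes changed. With a sign-flip test within replicate numbers each ratio had p = 0.25 (exact, the smallest possible). The ratio of H2AJ to H2AX was planned and not computed, since H2AJ had 0 reads in 1 library. Depth limits H2AJ only, which had 14 reads in all.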
